A study of Mus musculus with 4 samples.

Results

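The CXC chemokines described here are 10 genes (*Cxcl1*, *Cxcl2*, *Cxcl3*, *Cxcl9*, *Cxcl10*, *Cxcl12*, *Cxcl13*, *Cxcl14*, *Pf4* and *Ppbp*) among the 19946 genes measured in alveolar macrophages (AM) of *Trem-2*-/- and WT mice. Each was taken from the family by its symbol in the array's annotation. Where a gene had several probe sets, the one to keep was selected on its mean log2 value over the 4 arrays. All 10 genes had 1 probe set, so this rule decided none of their rows. The members themselves were chosen with earlier results of these arrays known. *Trem-2*-/- AM came from untreated mice aged 8 to 10 wk whose mutation had been backcrossed 10 times to C57/Blk6, and WT AM came from untreated C57/Blk6 mice of the same age. Cells were recovered by lavage, and the RNA of pooled mice was hybridized to 2 mouse gene arrays per genotype. How many mice made up a pool is not stated. WT mice were bought from a supplier, and the *Trem-2*-/- mice came from the backcrossed line, so genotype and breeding line cannot be told apart. The paper states that all its mice were bred in the animal facility of the authors' university and were matched for age and sex. All values are log2 values after robust multi-array averaging (RMA), and a called gene is one with a Benjamini-Hochberg adjusted p below 0.05 from limma over all 19946 genes.

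Chemokines are small secreted proteins that direct the migration of leukocytes through G protein-coupled receptors. In the CXC family a single residue separates the first pair of conserved cysteines. CXCL1 (KC), CXCL2 (MIP-2), CXCL3 and the processed product of PPBP carry a Glu-Leu-Arg motif before these cysteines and attract neutrophils through CXCR2. CXCL9 and CXCL10 are induced by interferons and attract activated T cells and NK cells through CXCR3, CXCL13 attracts B cells through CXCR5, and CXCL12 retains leukocytes and progenitors in tissues through CXCR4. PF4 (CXCL4) and PPBP (CXCL7) are best known from platelet granules, while macrophages of the lung are a source of CXCL1 and CXCL2 during bacterial infection.

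The promoters of 6 members are shown because these genes had the largest changes (*Cxcl13* and *Pf4*), or because they hold a match to the NF-kB motif, a binding sequence of the transcription factor through which Toll-like receptors induce chemokines. The sequences are the 220 bases before the start site from RefSeq, assembly GRCm38.p6, written 5′ to 3′ on the strand of the gene. Capitals mark matches on either strand to the NF-kB motif, to the interferon-stimulated response element (GAAANNGAAA) or to the TATA box (TATAAA).
*Cxcl1*, chr5:90891025-90891244, + strand: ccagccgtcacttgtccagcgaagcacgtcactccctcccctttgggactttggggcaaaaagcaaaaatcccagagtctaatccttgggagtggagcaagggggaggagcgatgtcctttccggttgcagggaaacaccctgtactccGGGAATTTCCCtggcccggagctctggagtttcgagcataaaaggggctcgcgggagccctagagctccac
*Cxcl2*, chr5:90903679-90903898, + strand: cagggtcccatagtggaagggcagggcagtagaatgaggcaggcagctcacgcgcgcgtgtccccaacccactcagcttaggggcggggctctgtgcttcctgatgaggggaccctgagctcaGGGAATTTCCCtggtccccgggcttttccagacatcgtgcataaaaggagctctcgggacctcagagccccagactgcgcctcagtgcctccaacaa
*Cxcl3*, chr5:90785881-90786100, + strand: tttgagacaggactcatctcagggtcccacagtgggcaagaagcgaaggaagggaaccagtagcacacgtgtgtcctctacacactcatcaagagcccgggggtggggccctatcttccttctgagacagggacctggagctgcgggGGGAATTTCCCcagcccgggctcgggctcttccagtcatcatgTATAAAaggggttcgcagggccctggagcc
*Cxcl10*, chr5:92348890-92349109, - strand: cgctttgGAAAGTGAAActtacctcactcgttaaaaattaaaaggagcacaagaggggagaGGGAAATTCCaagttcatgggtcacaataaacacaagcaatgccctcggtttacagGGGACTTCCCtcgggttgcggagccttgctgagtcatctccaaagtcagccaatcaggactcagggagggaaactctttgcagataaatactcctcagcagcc
*Cxcl13*, chr5:95956719-95956938, + strand: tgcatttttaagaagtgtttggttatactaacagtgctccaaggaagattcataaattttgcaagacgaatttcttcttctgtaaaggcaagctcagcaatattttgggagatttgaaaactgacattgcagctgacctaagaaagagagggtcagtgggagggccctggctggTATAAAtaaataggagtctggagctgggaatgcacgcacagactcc
*Pf4*, chr5:90772215-90772434, + strand: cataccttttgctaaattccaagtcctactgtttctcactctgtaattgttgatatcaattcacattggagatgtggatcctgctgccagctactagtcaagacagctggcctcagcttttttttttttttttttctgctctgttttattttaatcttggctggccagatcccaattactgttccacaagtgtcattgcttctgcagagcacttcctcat

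All 10 members had a promoter in the RefSeq table, and 6 motifs were searched on both strands of the 250 bases before each start site. The NF-kB motif was matched in *Cxcl1*, *Cxcl2*, *Cxcl3* and *Cxcl10*, 4 of 10 members, and in 3.90% of the 32817 promoters of the table. In *Cxcl1*, *Cxcl2* and *Cxcl3* the matches on the opposite strands overlapped and formed the same run of letters, GGGAATTTCCC, which began at position -71, -97 and -73 from the start site, whereas *Cxcl10* held separate matches that began at -159 and -103. The interferon-stimulated response element was matched in *Cxcl10*, at -213, and in *Cxcl14*, against 2.97% of all promoters. The TATA box was matched in *Cxcl3*, *Cxcl9*, *Cxcl13* and *Ppbp* (12.4% of all promoters), the AP-1 motif (TGANTCA) in *Cxcl10* and *Ppbp* (6.75%), the GATA motif (AGATAA) in *Cxcl10* (9.99%) and the GC box (GGGCGG) in *Cxcl2* and *Cxcl12* (32.7%). No match to one motif overlapped a match to another. In global alignments of the 220 bases, *Cxcl1*, *Cxcl2* and *Cxcl3* shared 63.6% to 67.3% of bases in their 3 pairs, and the other 42 pairs of members shared 53.6% to 62.3%. A match is a description of letters, and no binding was measured in these cells.

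*Trem2*, the targeted gene, had log2 values of 7.64 and 7.45 on the *Trem-2*-/- arrays, compared with 9.58 and 9.74 on the WT arrays. Arrays correlated at r = 0.995 in *Trem-2*-/- AM, 0.994 in WT AM and 0.992 to 0.993 across genotypes, over all probe sets. The lower quartile of the arrays lay at 4.39 to 4.40, and a value below it is called dim here. Nothing says that the 2 pools of a genotype held different mice, so each p-value reflects a spread between arrays that may be only technical. An exact permutation test with 2 arrays against 2 cannot give a two-sided p below 0.333. Of 13 measured AM markers, 1 was called higher (*Car4*) and none lower by limma, against 0.431% and 0.135% of all genes. None of these markers was dim on all arrays, and their median log2 fold change was -0.02. Of these markers 4 were higher and 6 lower on both *Trem-2*-/- arrays than on both WT arrays, whereas 17.4% and 25.4% of all genes were. In limma 3 positive and 2 negative changes had an unadjusted p below 0.05 (*Krt79* at -0.35 and *Siglecf* at -0.21 were the negative ones). With an intensity trend and robust variance in limma, *Krt79* and *Siglecf* were called lower and 3 markers higher. Their summed linear RMA signal was 42622 to 43884 on the *Trem-2*-/- arrays and 43350 to 43708 on the WT arrays, so that the genotypes overlapped.

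In *Trem-2*-/- AM 4 of the 10 CXC chemokines were called higher than in WT AM, namely *Cxcl13*, *Pf4*, *Cxcl10* and *Cxcl3*. None was called lower by limma or by significance analysis of microarrays (SAM), the permutation-based test that the study's methods name, and none had a negative change with an unadjusted p below 0.05. Among all genes, 0.431% were called higher and 0.135% lower. The median log2 fold change of the 10 genes was 0.63, against -0.02 for all genes tested. The comparison with all genes is descriptive, because the members were chosen with earlier results of these arrays known. Of the 5 other CXC ligands none was called, and their median was 0.13. The arrays of the genotypes did not overlap for any member. Of the 10 genes, 8 were higher on both *Trem-2*-/- arrays than on both WT arrays and 2 were lower, whereas 17.4% of all genes were separated upward and 25.4% downward. The members that did not pass were *Cxcl1*, *Cxcl2*, *Cxcl9*, *Ppbp*, *Cxcl12* and *Cxcl14*.

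**Figure D1:**
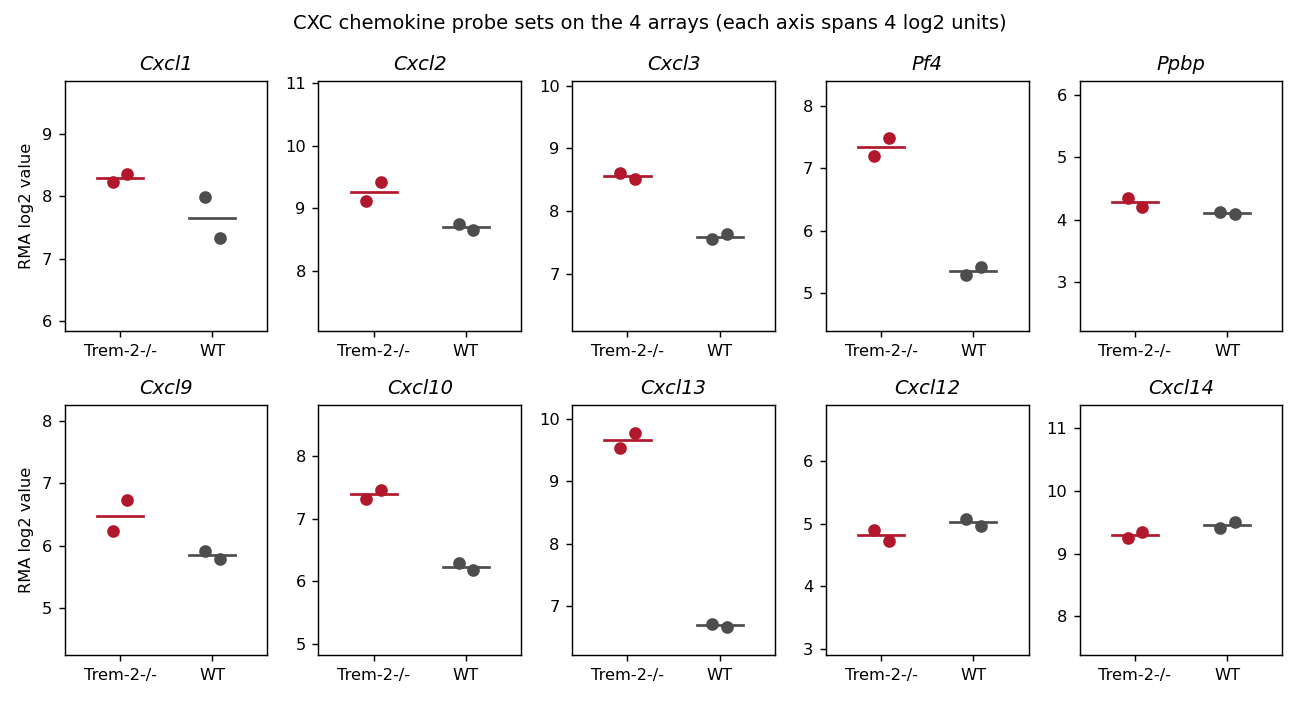
RMA log2 value of each CXC chemokine on each array, with *Trem-2*-/- AM in red and WT AM in grey; points are arrays, bars the means of 2 arrays, and every axis spans 4 log2 units. *Cxcl13* and *Pf4* show the widest gaps, with 2.81 and 1.78 log2 units between the lowest *Trem-2*-/- array and the highest WT array.

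*Cxcl13* changed most. Its log2 values were 9.53 and 9.77 on the *Trem-2*-/- arrays, compared with 6.71 and 6.67 on the WT arrays. The spread within each genotype was small beside the gap between them. The log2 fold change was 2.96 (standard error 0.10, interval at 95% from 2.72 to 3.20, limma adjusted p = 0.000356), or 7.78-fold, the increase of rank 3 among the 19946 genes. CXCL13 is made by follicular stromal cells, where it organises B cell follicles, and by some macrophages of the body cavities. Most markers of cavity macrophages moved with it. Of 11 measured, 5 were called higher (*Serpinb2*, *Prg4*, *Vsig4*, *Alox15* and *Timd4*) and none lower, against 0.431% and 0.135% of all genes. The count was 6 higher by SAM and 9 with an intensity trend and robust variance, *Gata6* then included. Their median log2 fold change was 0.63. In limma 10 positive changes and 1 negative one (*Garnl3* at -0.29) had an unadjusted p below 0.05. *Prg4* and *Vsig4* were dim on both WT arrays. The summed linear RMA signal was 9324 to 9438 on the *Trem-2*-/- arrays and 6834 to 7424 on the WT arrays. Most of that sum came from *Adgre1* and *Fn1*, neither of them called in the reported fit. *Gata6*, the transcription factor that defines peritoneal macrophages, was not called in the reported fit, at 0.53 (limma adjusted p = 0.175), and none of these 11 markers was dim on all arrays. None of 5 measured B cell markers was called by limma or SAM or had an unadjusted p below 0.05, and 2 of them were dim on all arrays. The part of other cells in the level of *Cxcl13* was not tested. In RNA of a whole lavage a change in the number of cells of a type and a change in RNA per cell cannot be told apart.

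*Pf4* was the member with the next largest change. It had log2 values of 7.19 and 7.49 on the *Trem-2*-/- arrays, compared with 5.30 and 5.42 on those of WT AM. The log2 fold change was 1.98 (standard error 0.11, interval at 95% from 1.71 to 2.26, limma adjusted p = 0.00199), or 3.96-fold, rank 10 among all increases. PF4 binds heparin and other glycosaminoglycans and, besides platelets, is transcribed by several resident macrophage populations. *Ppbp*, which encodes the other abundant CXC chemokine of platelets and lies next to *Pf4* in the order of tested genes, had 4.34 and 4.21 on the *Trem-2*-/- arrays and 4.13 and 4.09 on those of WT AM. These values were dim on all 4 arrays. The log2 fold change of *Ppbp* was 0.17, with a 95% interval from -0.03 to 0.36 and an adjusted p of 0.502 (limma), an interval that did not overlap that of *Pf4*.

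Of 9 measured markers of platelets and megakaryocytes, none was called by limma, with an unadjusted p below 0.05 for 1 positive and 2 negative changes, while SAM called 1 higher (*Treml1*). On both *Trem-2*-/- arrays 1 was above and 7 were below both WT arrays (17.4% and 25.4% of all genes), and their median log2 fold change was -0.13. Their summed linear RMA signal was 1743 to 1796 on the *Trem-2*-/- arrays and 1980 to 1987 on the WT arrays, and none of the 9 was dim on all arrays. The list for interstitial or monocyte-derived macrophages, which does not hold *Pf4*, had 7 of 14 measured genes called higher and none lower by limma. Among all genes, 0.431% were called higher and 0.135% lower. SAM called 8 of the list higher and none lower. With an intensity trend and robust variance, or with the filter on the mean log2 value, 8 were called higher and 1 lower. At an unadjusted p below 0.05 in limma there were 8 positive changes and 1 negative one, *Mmp12* at -0.44 (limma adjusted p = 0.104). The median of the list was 0.61. Its summed linear RMA signal was 25706 to 25816 on the *Trem-2*-/- arrays and 21623 to 21769 on the WT arrays. The part of platelets or of such macrophages in the level of *Pf4* was not tested.

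Of the interferon-induced ligands of CXCR3, *Cxcl10* was called and *Cxcl9* was not. *Cxcl10* had log2 values of 7.32 and 7.47 on the *Trem-2*-/- arrays, compared with 6.29 and 6.18 on those of WT AM. Its log2 fold change was 1.16 (standard error 0.09, interval at 95% from 0.94 to 1.37, limma adjusted p = 0.00696), or 2.23-fold. *Cxcl9*, which is induced mainly by interferon-gamma, had 6.23 and 6.73 on the *Trem-2*-/- arrays and 5.92 and 5.78 on those of WT AM. Its *Trem-2*-/- arrays differed from each other by more than the lower of them differed from WT. The log2 fold change of *Cxcl9* was 0.63 (standard error 0.16, interval at 95% from 0.24 to 1.03, limma adjusted p = 0.240), and leaving out *Trem-2*-/- replicate 2 gave 0.39, while leaving out replicate 1 gave 0.88. The remaining gene of this group, *Cxcl11*, which RefSeq lists as a transcribed pseudogene in C57BL/6J, had a mean log2 value of 4.57 in *Trem-2*-/- AM and 4.88 in WT AM, with a log2 fold change of -0.31 (limma adjusted p = 0.375).

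Other interferon response genes were measured beside these chemokines. Of 18, 2 were called higher and none lower, against 0.431% and 0.135% of all genes, and their median log2 fold change was 0.15. The called genes were *Gbp5* and *Gbp3*, guanylate-binding proteins of the interferon-gamma response, with log2 fold changes of 0.89 and 0.70 (adjusted p = 0.0197 and 0.0485 from limma). *Ifit1*, a marker of the type I interferon response, had 0.63 (limma adjusted p = 0.0868) and was called by SAM, which gave 3 higher and none lower. In limma 7 genes of the list had a positive change with an unadjusted p below 0.05 and none a negative one. On both *Trem-2*-/- arrays 9 were above and 1 was below both WT arrays (17.4% and 25.4% of all genes). The uncalled genes ranged from *Usp18*, at -0.13 (limma adjusted p = 0.750), to *Ifit1*. None of 9 markers of T and NK cells, which the CXCR3 ligands attract, and none of 7 dendritic cell markers was called by limma or SAM, with 1 positive change at an unadjusted p below 0.05 in each list.

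Among the CXCR2 ligands, *Cxcl3* was called and *Cxcl1* and *Cxcl2* were not. *Cxcl3* had log2 values of 8.60 and 8.51 on the *Trem-2*-/- arrays, compared with 7.55 and 7.63 on those of WT AM. Its log2 fold change was 0.97 (standard error 0.08, interval at 95% from 0.78 to 1.16, limma adjusted p = 0.00831), or 1.96-fold. *Cxcl2* had 9.11 and 9.43 on the *Trem-2*-/- arrays and 8.75 and 8.65 on those of WT AM, and its log2 fold change was 0.57 (interval at 95% from 0.28 to 0.85, limma adjusted p = 0.155). *Cxcl1*, which encodes KC, had 8.23 and 8.35 on the *Trem-2*-/- arrays and 7.98 and 7.33 on those of WT AM. The WT arrays of *Cxcl1* lay further apart than the arrays of either genotype for any other member. The log2 fold change of *Cxcl1* was 0.64 (standard error 0.20, interval at 95% from 0.14 to 1.13, limma adjusted p = 0.336), and it was 0.31 without WT replicate 2 and 0.96 without WT replicate 1. The intervals of *Cxcl1*, *Cxcl2* and *Cxcl3* overlapped, and whether their changes differed was not tested. These genes are close paralogues, and how far their probe sets share probes is not given in the sources used here.

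The promoters of *Cxcl1*, *Cxcl2* and *Cxcl3* share the NF-kB match shown above, and 21 other NF-kB response genes were measured. Of these, 2 were called higher and none lower, *Ptgs2*, which encodes cyclooxygenase-2, at 2.12 (limma adjusted p = 0.000875) and *Ccl3*, which encodes MIP-1 alpha, at 0.63 (limma adjusted p = 0.0289). The median of the list was 0.12, and 15 of its genes were higher on both *Trem-2*-/- arrays than on both WT arrays (17.4% of all genes), while the share called higher among all genes was 0.431%. The uncalled member with the largest value was *Il1b*, which encodes interleukin-1 beta, at 0.67 (limma adjusted p = 0.0798), and SAM called it too, for 3 higher and none lower. In limma 8 genes of the list had a positive change with an unadjusted p below 0.05 and none a negative one. *Nfkbia*, the inhibitor of NF-kB that is itself induced by it, had 0.12 (limma adjusted p = 0.566). No neutrophil marker was called by limma among 13 measured, although 4 had a positive change with an unadjusted p below 0.05 and SAM called 1 higher (*Csf3r*). The median of these markers was 0.09, their summed linear RMA signal was 1103 to 1131 on the *Trem-2*-/- arrays and 966 to 988 on the WT arrays, and 3 of them, *Ly6g* and *Retnlg* included, were dim on all arrays. Their part in the levels of these chemokines was not tested.

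*Cxcl12* and *Cxcl14*, the members that are mostly constitutive rather than induced by inflammation, had small negative log2 fold changes. *Cxcl12*, which encodes the CXCR4 ligand SDF-1, had log2 values of 4.90 and 4.73 on the *Trem-2*-/- arrays, compared with 5.08 and 4.97 on those of WT AM. Its log2 fold change was -0.21, with a 95% interval from -0.43 to 0.01 and an adjusted p of 0.462 (limma). *Cxcl14*, a chemokine of epithelia and other barrier tissues, had 9.25 and 9.34 on the *Trem-2*-/- arrays, compared with 9.41 and 9.51 on those of WT AM. Its log2 fold change was -0.16, with a 95% interval from -0.36 to 0.03 and an adjusted p of 0.506 (limma). Neither passed the test. The lower ends of the intervals, without correction for the genes tested, lay at -0.43 for *Cxcl12* and -0.36 for *Cxcl14*. The intervals reflect a spread between arrays that may be only technical, so they set no limit on a difference between mice. Of 14 lung epithelial markers, 2 were called higher (*Cldn18* and *Scgb1a1*) and none lower by limma, against 0.431% and 0.135% of all genes. SAM called 5 higher, with *Krt8*, *Krt18* and *Krt19* in addition. The list held 9 positive and 5 negative changes, with a median of 0.21. At an unadjusted p below 0.05 in limma there were 6 positive changes and 1 negative one (*Cdh1* at -0.45). The summed linear RMA signal was 1933 to 1942 on the *Trem-2*-/- arrays and 1516 to 1607 on the WT arrays. None of 12 fibroblast and endothelial markers was called by limma or SAM, and 1 had an unadjusted p below 0.05.

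**Figure D2:**
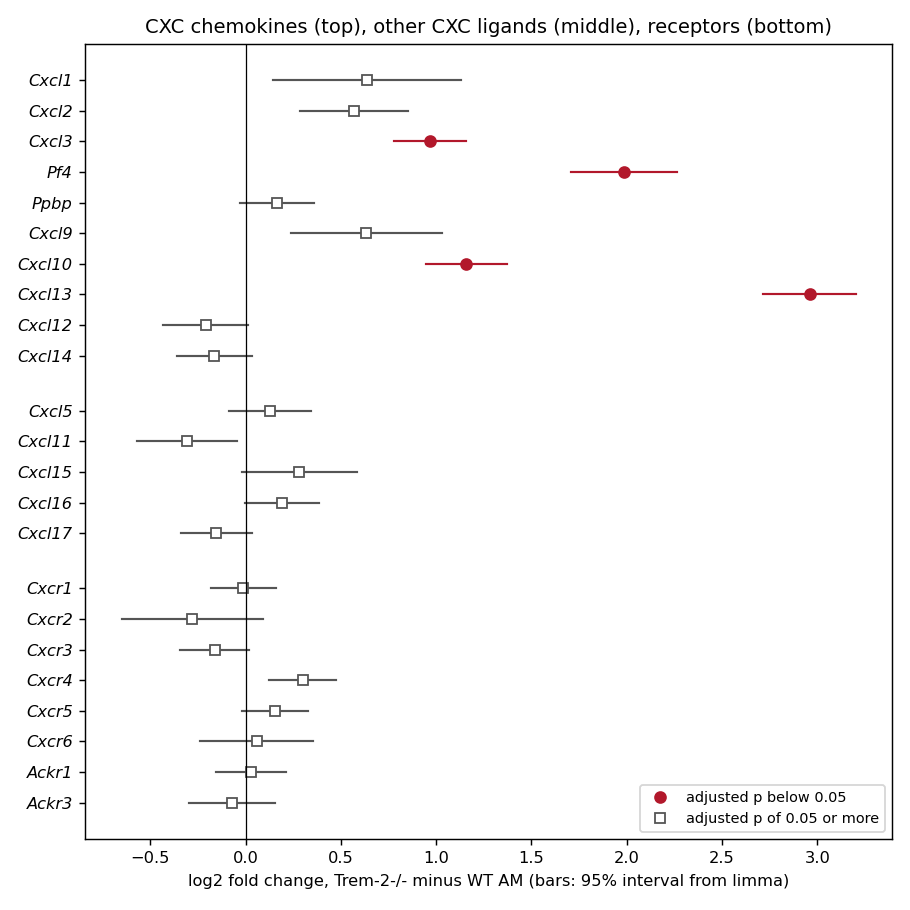
Log2 fold change in *Trem-2*-/- over WT AM of the 10 CXC chemokines (top), 5 other CXC ligands (middle) and 8 receptors (bottom), from 2 arrays per genotype. Points are estimates and bars 95% intervals from limma, with filled red circles for an adjusted p below 0.05; the 4 called genes lie at 0.97 to 2.96 and all receptors between -0.28 and 0.30.

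None of the 8 receptors was called by limma or SAM, and none of the 5 other CXC ligands, with an unadjusted p below 0.05 for 1 receptor (*Cxcr4*) and 1 ligand (*Cxcl11*). *Cxcr4* was called higher in limma with an intensity trend and robust variance and with a filter on the mean log2 value. The log2 fold change of largest size among the receptors was that of *Cxcr4*, the receptor for CXCL12, which had log2 values of 12.16 in *Trem-2*-/- AM and 11.86 in WT AM, a difference of 0.30 (interval at 95% from 0.12 to 0.48, limma adjusted p = 0.205). *Cxcr5*, the receptor for CXCL13, was dim on all arrays, with a log2 fold change of 0.15 (limma adjusted p = 0.472). *Cxcr3*, the receptor for CXCL9 and CXCL10, had -0.16 (limma adjusted p = 0.472), and *Cxcr2* had -0.28 (limma adjusted p = 0.552). The median was 0.01 for the receptors and 0.13 for the other ligands. The other ligands included *Cxcl16*, a membrane-anchored ligand of CXCR6 that is also a scavenger receptor, with 10.66 in *Trem-2*-/- AM and 10.47 in WT AM and a log2 fold change of 0.19 (limma adjusted p = 0.447).

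Of the 10 members, 8 lie on chromosome 5, while *Cxcl12* lies on chromosome 6 and *Cxcl14* on chromosome 13, and *Trem2* lies on chromosome 17. Along chromosome 5 the tested genes *Cxcl5*, *Ppbp*, *Pf4*, *Cxcl3*, *Cxcl15*, *Cxcl1* and *Cxcl2* follow each other directly. Within this run the called genes *Pf4* and *Cxcl3* stood between *Ppbp*, at 0.17, and *Cxcl15*, at 0.28 (limma adjusted p = 0.458) and dim on all arrays, while *Cxcl5*, the gene beside *Ppbp*, had 0.13 (limma adjusted p = 0.637). The tested neighbours of *Cxcl10* were *Art3*, with a log2 fold change of -0.14, and *Cxcl11*, with -0.31. Those of *Cxcl13* were *Gm7982*, with -0.01, and *Cnot6l*, with 0.10. None of these neighbours passed the test, apart from *Pf4* and *Cxcl3*, which neighbour each other.

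**Figure D3:**
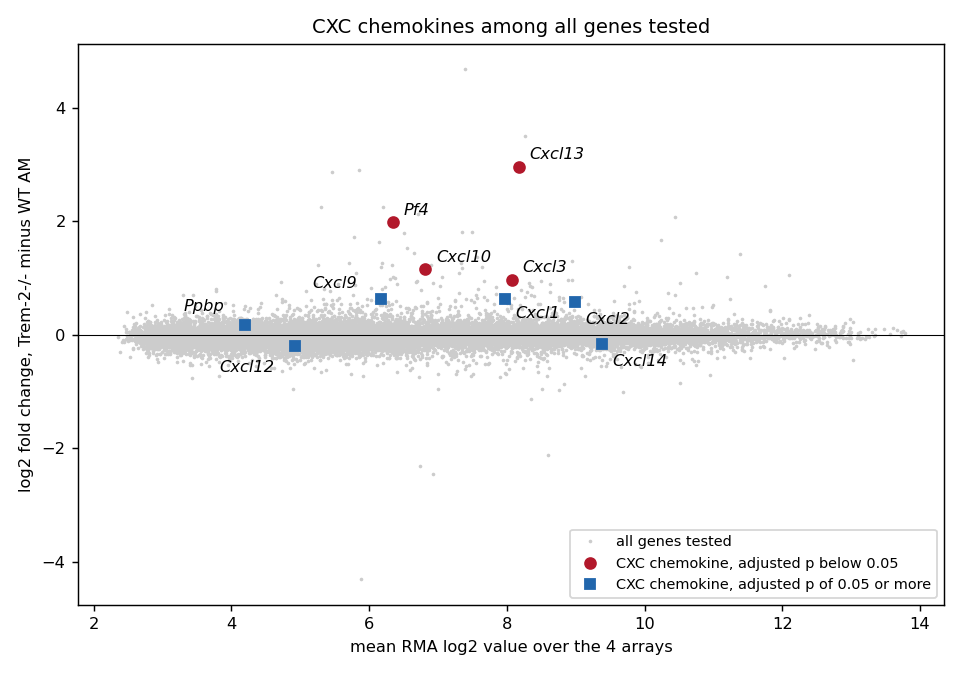
Change in *Trem-2*-/- over WT AM (log2) plotted against the mean RMA log2 value over the 4 arrays for 19946 genes (grey). Red circles are the 4 called CXC chemokines and blue squares the 6 others; *Cxcl13*, at 2.96, and *Pf4*, at 1.98, lie at the upper edge of all genes, and *Ppbp* and *Cxcl12* among the bulk.

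*Cxcl13* and *Pf4* were called in each of the 4 fits that left out 1 array, as were 0.1% of all genes. Their log2 fold changes in these fits ran from 2.84 to 3.08 and from 1.84 to 2.13. *Cxcl10* was called in 3 of the 4 fits and missed the threshold without *Trem-2*-/- replicate 2 (limma adjusted p = 0.0589). *Cxcl3* was called in 1 of them, without WT replicate 2, and its adjusted p in the 4 fits lay between 0.0489 and 0.0768 while its log2 fold change stayed between 0.92 and 1.02. SAM called the same 4 members at a false-discovery rate of 5%, and 0.887% of all genes as higher. With an intensity trend and robust variance in limma, 7 of the 10 members were called higher, *Cxcl1*, *Cxcl2* and *Cxcl9* in addition, against 1.9% of all genes.

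**Figure D4:**
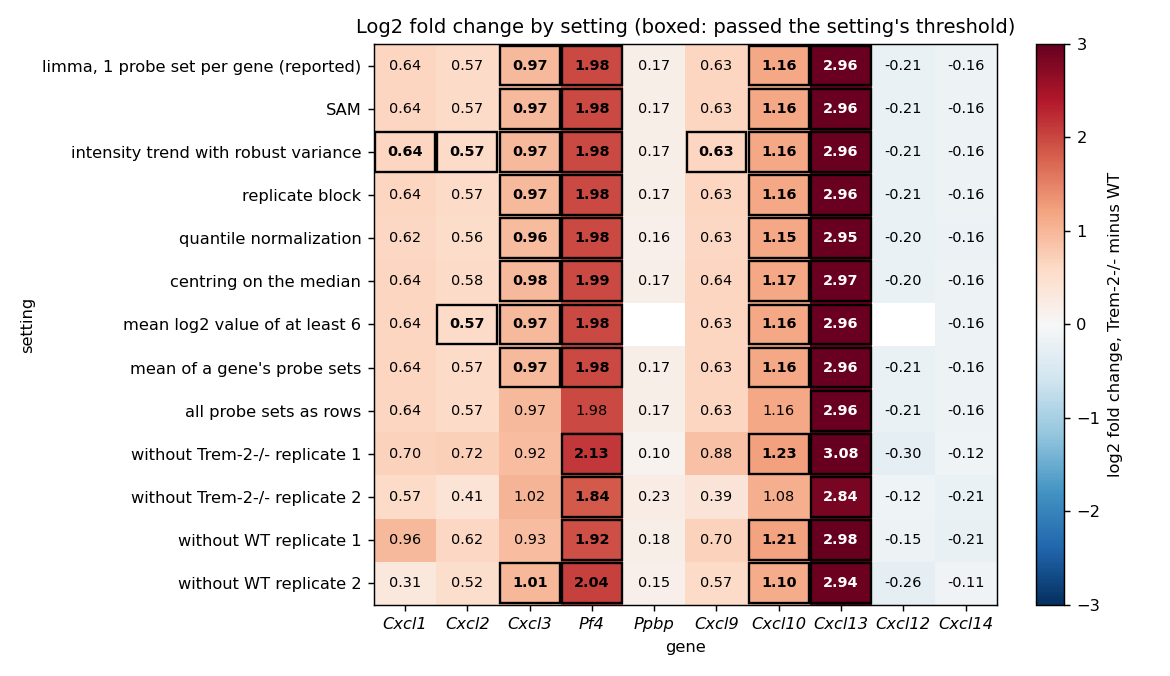
Log2 fold change in *Trem-2*-/- over WT AM of each CXC chemokine (columns) in the reported fit and in 12 alternatives (rows), with boxes and bold type where the gene passed that setting's threshold. *Cxcl13* is boxed in every row, *Pf4* in all but the fit with all probe sets as rows, and no member changes sign; blank cells are genes removed by the filter.

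**Figure D5:**
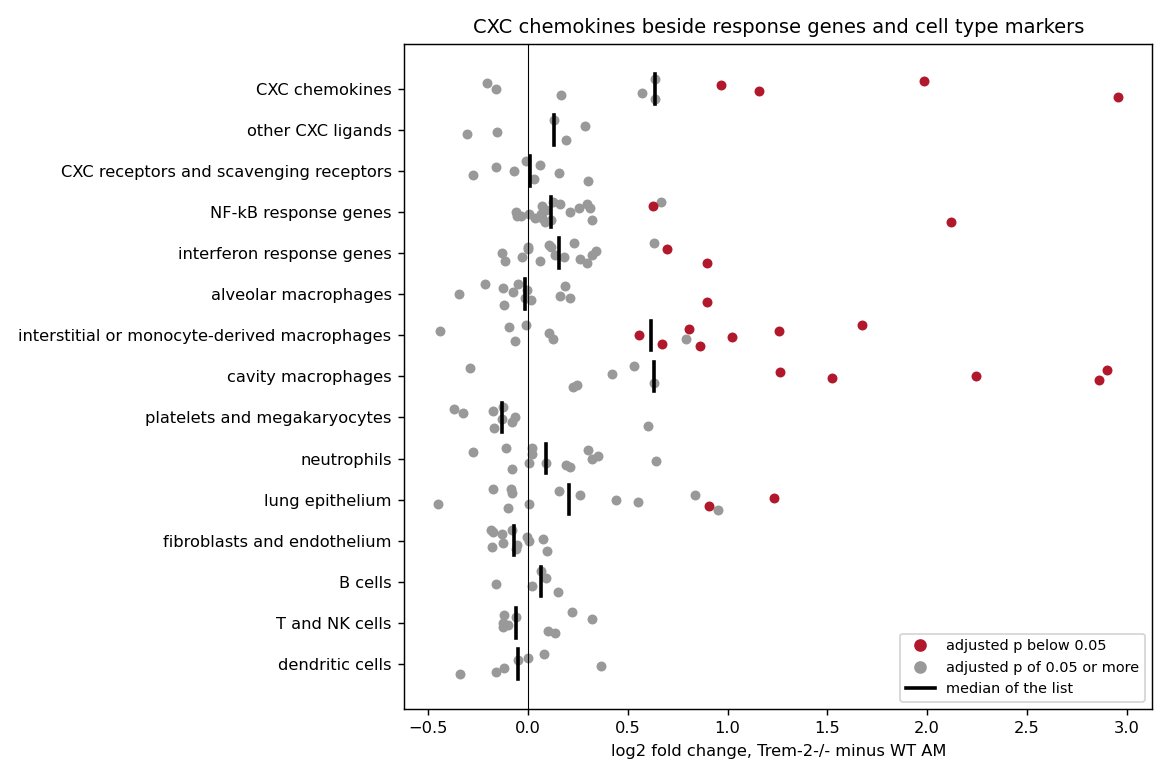
Log2 fold change in *Trem-2*-/- over WT AM of each measured gene of the CXC chemokines and of 14 other lists (rows), with red points for an adjusted p below 0.05 in limma and black bars for the medians. The medians of the CXC chemokines, at 0.63, the cavity macrophage markers, at 0.63, and the interstitial or monocyte-derived macrophage markers, at 0.61, lie furthest to the right.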

How the data were processed

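RNA of AM was hybridized to Affymetrix mouse gene arrays, 2 per genotype. The authors combined the intensity files and normalized them by RMA (version not given in the sources used here), and the deposited table holds log2 values by probe set and array. The submitters' processing notes name RMA and the build mm9. RMA equalizes the distributions of the arrays, so a shift of all genes would not show, and its background step was not varied here. Of 35557 probe sets, 21797 carried 1 symbol, 1613 several and 12147 were not listed. Names came from the platform annotation, updated through RefSeq (GRCm38.p6).

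The probe set with the highest mean was kept for each of 19946 genes, without a filter. A two-sided limma test (version 3.58.1, R 4.3.3, functions lmFit and eBayes) compared the genotypes, with Benjamini-Hochberg adjustment across these genes and no term for the replicate number. The fit and SAM, which uses all 6 assignments of the arrays, were tested on simulated data. Promoters were searched and aligned with Python 3.11.15 and Biopython 1.88. Alternatives were SAM, robust variance with an intensity trend, a block for the replicate number, median centring, quantile normalization, a filter that kept mean log2 values of at least 6, averaged probe sets per gene, each probe set as a row, and leaving out each array.

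The members and the 14 other lists were chosen with earlier results of these arrays known. All members are named, with the called genes of the response lists, the largest value of a list with none called, the receptors of the members and the nearest tested genes. *Cxcl5*, *Cxcl15* and *Cxcl16* and the markers and uncalled response genes were named after their values were seen.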

Additional observations from a re-analysis of the deposited data

How the results depend on the processing

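No CXC chemokine changed sign in any alternative, and none was called lower. Of the 10 members, 4 were called higher in the reported fit, as under SAM, the replicate block, quantile normalization, centring on the median and averaged probe sets per gene. The count was 7 with an intensity trend and robust variance, 5 with a mean log2 value of at least 6, which removes *Ppbp* and *Cxcl12*, and 1 (*Cxcl13*) with all probe sets as rows, where *Pf4* had an adjusted p of 0.0844 and *Cxcl3* and *Cxcl10* 0.137 in limma; the cause was not tested. It ranged from 2 to 4 with 1 array left out, and the lowest count, *Cxcl13* and *Pf4*, came without *Trem-2*-/- replicate 2. *Cxcr4* was the receptor called with the intensity trend and with the filter. Lung epithelial markers called higher numbered 2 in the reported fit, 5 with SAM, the intensity trend or the filter, 4 with the replicate block, 0 with all probe sets as rows and 0 to 1 with 1 array left out. With the intensity trend, and likewise with the filter, 1 lung epithelial marker was called lower. Of all genes, the reported fit called 86 higher and 27 lower. SAM gave 177 higher and 19 lower, the intensity trend 379 and 290, the filter 207 and 150, and all probe sets as rows 21 and 2. With 1 array left out the counts ran from 22 to 43 higher and from 4 to 7 lower, with the lone array of a genotype assumed to vary like the other genotype. With the replicate block 98 were higher and 31 lower. The labels do not say that equal numbers mark a shared batch, and deviations of equally numbered arrays from their genotype means correlated at r = -0.05 across genes, which are not independent replicates. The number of arrays limits the precision, and a change in a dim gene such as *Ppbp* may not be detectable.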
